A study of Rattus norvegicus with 40 samples.

Results

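The genes described here encode 5 G protein alpha subunits (Gnaq, Gna11, Gnas, Gnai2 and Gnai3) and 4 regulators of G protein signalling (Rgs2, Rgs4, Rgs5 and Rgs14), 9 genes in all. Their probe sets were chosen by gene symbol in the platform annotation: 12 of the 31042 probe sets carried 1 of these symbols and no other, for 8 of the 9 genes, of 14217 genes with a probe set of their own. Of the 12, 10, with at least 1 for each of the 8 genes, were bright enough to be tested. Gnai3 had no probe set of its own, because the 2 probe sets that carry its symbol also carry that of Gnai1. The genes were picked from earlier results of these same arrays, in which Gnaq had been named for its change between 120 and 0 min in both arms. For that reason the members' changes at 120 min against 0 min are given as a description, without p-values. RNA came from cultured neonatal rat ventricular myocytes (NRVMs), the heart muscle cells of newborn rats, which were made ischemic by coverslip hypoxia. In this model a coverslip laid on the cells limits their supply of oxygen and medium. There were 40 arrays in 10 groups, ischemia followed by reperfusion or ischemia alone, each labelled 0, 10, 30, 60 or 120 min, with 4 arrays a group. Preparations 1 and 2 of the cells were each run in duplicate. How long reperfusion lasted, what the minutes cover, and whether the duplicates were separate cultures is not in the labels, so the spread behind the p-values may be technical in part. Nor do the labels say whether preparation 1 or 2 was the same in every group. No genotype, strain or drug is named, and all groups are cultures of the same kind.

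Heterotrimeric G proteins carry signals from receptors such as the adrenergic, angiotensin, endothelin and adenosine receptors into the heart muscle cell. Gs, whose alpha subunit is made by Gnas, stimulates adenylyl cyclase and with it the rate and force of beating, Gi opposes this, and Gq and G11 activate phospholipase C beta, a route known for its part in hypertrophic growth. RGS proteins end these signals by speeding up the hydrolysis of GTP on alpha subunits of the Gi and Gq classes.

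Values are log2(intensity + 16) after quantile normalization, and within a group the 4 arrays are listed as preparation 1, duplicates 1 and 2, then preparation 2, duplicates 1 and 2. A probe set was called changed when its adjusted p from limma, with Benjamini-Hochberg adjustment over the 18625 probe sets tested, was under 0.05. Changes are given ± SE from that fit, with n = 2 preparations in each group. Brightness depends on the probes as well as on the transcript, so levels are compared between groups of arrays and not between genes. Of 14 cardiomyocyte markers, 13 were tested, and their median lay at percentile 99.8 of all probe sets. Fibroblast markers had a median percentile of 96.4 (10 of 10 tested), and smooth muscle and pericyte markers 91.1 (12 of 12 tested). For macrophage markers it was 67.5 (8 of 9 tested) and for endothelial markers 64.5 (7 of 9 tested). These medians cover only markers bright enough to be tested, which keeps them away from the dim end. Being bright enough is not a detection call, so whether RNA of other cell types was present was not tested. In RNA from a whole culture, fewer cells of a type and less RNA per cell cannot be told apart.

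1 array stood apart in a way that touches these genes. On the ischemia 0 min array of preparation 1, duplicate 1, the 2 probe sets of Rgs2, the 2 of Rgs4 and the 2 shared by Gnai1 and Gnai3 each had their usual order turned round. The Rgs2 pair differed by -1.175 log2 units on that array, against 0.985 to 1.498 on the other 39. For Rgs4 the difference was -0.99, against 0.46 to 1.32 on the others, and for the Gnai1 and Gnai3 pair it was -1.96, against 1.76 to 2.50. The same was seen well beyond these genes. Among 1181 genes with 2 tested probe sets that usually differ by more than 1 log2 unit, the order was turned in 182 (15.4%) on this array and in 0 to 2 on each other array. Results of Rgs4, Rgs2, Rgs14 and Gnaq against ischemia 0 min are therefore given with and without it. Results of the other genes against that group are given with it only. A gene with a single probe set, such as Gnaq or Rgs14, has no such check on that array. At 120 min, ischemia preparation 2 duplicate 2 and ischemia+reperfusion preparation 2 duplicate 1 had been found out of place in earlier results, and values without that pair are given where they matter.

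**Figure D1:**
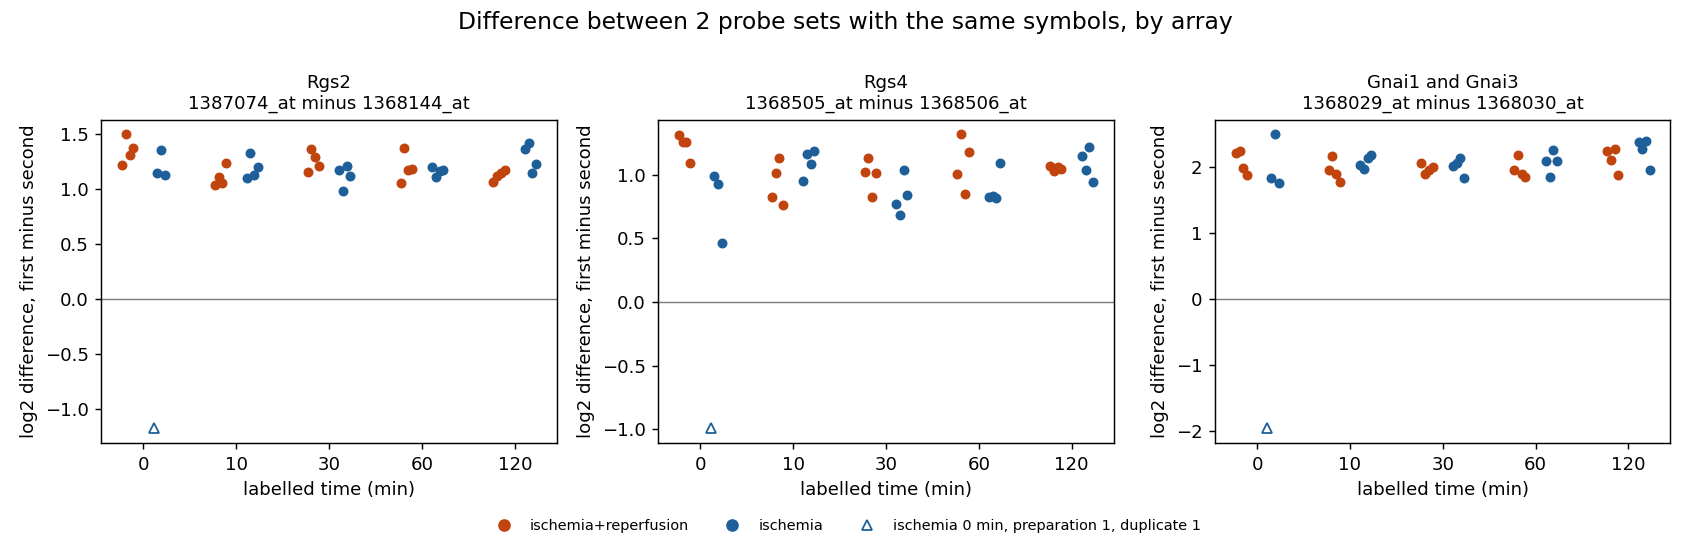
Difference in log2(normalised intensity + 16) between 2 probe sets with the same gene symbols (vertical axis) on each of the 40 arrays, by labelled time (horizontal axis, min); orange points are ischemia+reperfusion arrays and blue points ischemia arrays. The open triangle, the ischemia 0 min array of preparation 1 duplicate 1, lies below 0 in all 3 pairs (-1.175, -0.99 and -1.96), while the other 39 arrays lie above 0.

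The RGS genes accounted for all the member calls at 10 to 60 min. With reperfusion the calls came from the 2 probe sets of Rgs4 at 30 min, and from the same 2 and Rgs2 at 60 min. In ischemia they came from Rgs4 and Rgs14 at 10 min and from Rgs4 alone at 30 and 60 min. In the ischemia+reperfusion arm, 0 of the 10 tested member probe sets were called at 10 min (3 had an unadjusted p under 0.05), 2 at 30 min and 3 at 60 min, all higher than at 0 min, while 0.0376%, 0.784% and 4.69% of all tested probe sets were called. In the ischemia arm, 2 were called at 10 min, 1 at 30 min and 1 at 60 min, again all higher, while 1.98%, 0.0966% and 0.129% of all tested probe sets were called. At 120 min, 5 member probe sets passed in the ischemia+reperfusion arm (4 higher, 1 lower) and 6 in the ischemia arm (5 higher, 1 lower), beside 7.17% and 12.9% of all tested probe sets. Nothing is read from the counts at 120 min, since that comparison was used in picking the genes. The comparisons within an arm share their 0 min arrays, so they are not independent of one another. At 10 to 60 min the median change of the 10 member probe sets lay between 0.06 and 0.24 with reperfusion and between 0.17 and 0.32 without it. The medians of all tested probe sets lay between -0.01 and 0.00. Rgs2 and Rgs4 enter these counts and medians with 2 probe sets each, so the 10 values are not 10 genes.

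Rgs4, which acts on Gi and Gq alpha subunits, was higher at every later time than at 0 min in both arms. With all arrays it was the RGS member with the widest range of group means (2.12, against 1.99 for Rgs14). The ends of its range are the ischemia 0 min group, which holds the turned array, and the ischemia 120 min group. Without that array the fitted difference between them was 1.72, below the range of Rgs14. Its rank over Rgs14 therefore rests on that array. Its brighter probe set, 1368505_at, read 9.86, 9.66, 9.17 and 9.14 at 0 min of ischemia+reperfusion, 11.46, 11.18, 9.66 and 10.91 at 10 min, 10.99, 10.59, 11.10 and 10.82 at 30 min, 11.28, 10.42, 10.87 and 10.35 at 60 min, and 10.81, 10.94, 10.89 and 10.15 at 120 min. In ischemia alone it read 8.15, 9.76, 8.78 and 8.48 at 0 min, 10.54, 10.57, 10.50 and 10.68 at 10 min, 10.32, 10.38, 10.26 and 10.22 at 30 min, 10.44, 10.06, 10.27 and 10.30 at 60 min, and 11.21, 11.00, 10.79 and 10.66 at 120 min. Every array from 10 min on lay above every 0 min array of its arm except 1, the ischemia+reperfusion 10 min array of preparation 2 duplicate 1 (9.66), which lay within the 0 min range. Most of the difference was present by the 10 min label, and the means of the later groups stayed between 10.27 and 10.92.

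In ischemia+reperfusion, 1368505_at rose by 1.42 ± 0.23 (SE) at 30 min against 0 min (2.67-fold, adjusted p = 0.0193) and by 1.27 ± 0.23 at 60 min (2.41-fold, adjusted p = 0.0153). Without the replicate block for preparation the call at 30 min was lost (adjusted p = 0.0707). Without the 10 min array of preparation 2 duplicate 2, the calls of this arm at 10 to 60 min over all members numbered 1, against 5 with it. At 10 min the change was 1.34 ± 0.23 with an adjusted p of 0.0545. Without the low array of preparation 2 duplicate 1, that change was 1.66 ± 0.16. That array was singled out for its low Rgs4 value, so the value without it is a description and not a test. In ischemia alone, 1368505_at rose by 1.78 ± 0.23 at 10 min (3.44-fold, adjusted p = 0.01), by 1.51 ± 0.23 at 30 min (adjusted p = 0.045) and by 1.47 ± 0.23 at 60 min (adjusted p = 0.0365). Without the 0 min array whose probe set pairs were turned, the changes were 1.38 ± 0.28 at 10 min (adjusted p = 0.0415), 1.10 ± 0.28 at 30 min (adjusted p = 0.171) and 1.07 ± 0.28 at 60 min (adjusted p = 0.157). The call at 10 min thus held and those at 30 and 60 min did not. At 120 min it was higher than at 0 min by 1.24 ± 0.23 in ischemia+reperfusion and by 2.12 ± 0.23 in ischemia. The ischemia value was 1.72 ± 0.28 without that array.

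The second Rgs4 probe set, 1368506_at, moved with the first. It read 8.55, 8.40, 7.91 and 8.05 at 0 min of ischemia+reperfusion, 10.64, 10.17, 8.53 and 10.15 at 10 min, 9.98, 9.46, 10.27 and 9.80 at 30 min, 10.27, 9.10, 10.02 and 9.18 at 60 min, and 9.74, 9.91, 9.82 and 9.10 at 120 min. Ischemia arrays gave 9.14, 8.77, 7.85 and 8.01 at 0 min, 9.59, 9.41, 9.41 and 9.50 at 10 min, 9.55, 9.69, 9.23 and 9.38 at 30 min, 9.61, 9.23, 9.45 and 9.20 at 60 min, and 10.07, 9.96, 9.57 and 9.72 at 120 min. The same ischemia+reperfusion 10 min array was low in this probe set (8.53), and all ischemia arrays from 10 min on lay above the 0 min arrays. With reperfusion, it rose by 1.65 ± 0.28 at 30 min (adjusted p = 0.0208) and 1.41 ± 0.28 at 60 min (adjusted p = 0.0209), neither of which was called without the block (adjusted p = 0.0802 and 0.0561). At 10 min it differed by 1.64 ± 0.28 (adjusted p = 0.0545). In ischemia alone the changes of 1.03, 1.02 and 0.93 (SE 0.28) at 10, 30 and 60 min were not called (adjusted p = 0.0747, 0.162 and 0.187). Nor were those of 1.12, 1.11 and 1.02 (SE 0.25) without the turned array (adjusted p = 0.0571, 0.142 and 0.143). At 120 min it was higher by 1.41 ± 0.28 in ischemia+reperfusion and by 1.38 ± 0.28 in ischemia, or 1.48 ± 0.25 without that array. The mean of both probe sets, which a swap of the pair leaves as it is, rose by 1.41 ± 0.24 at 10 min of ischemia (adjusted p = 0.024), and by 1.25 ± 0.26 without the turned array (adjusted p = 0.0464). At 30 and 60 min of ischemia that mean was not called (1.26 and 1.20, SE 0.24, adjusted p = 0.0849 and 0.103). With reperfusion it was 1.49 at 10 min (adjusted p = 0.0558), and it rose by 1.53 at 30 min (adjusted p = 0.0181) and 1.34 at 60 min (adjusted p = 0.0153).

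**Figure D2:**
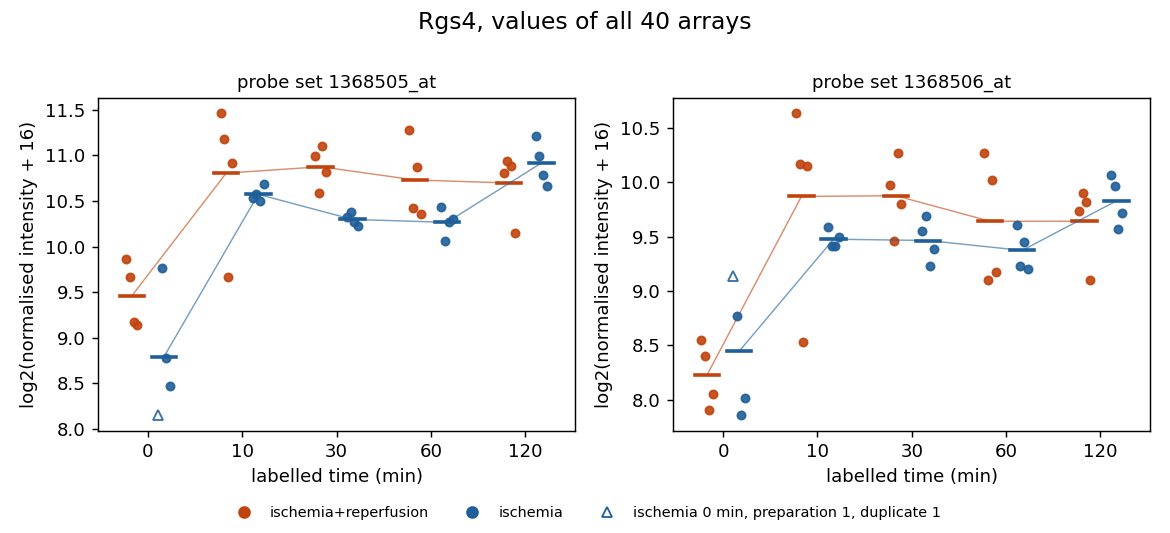
Rgs4 on each of the 40 arrays, as log2(normalised intensity + 16) (vertical axis) by labelled time (horizontal axis, min); left panel 1368505_at, right panel 1368506_at. Orange points are ischemia+reperfusion and blue points ischemia, bars are means of 4 arrays, and the open triangle is the ischemia 0 min array with turned probe set pairs; the 0 min means (9.46 and 8.79 on the left) are the lowest of each arm in both panels.

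Rgs2, which acts mainly on Gq, moved the same way by smaller amounts. Its brighter probe set, 1387074_at, read 11.52, 11.44, 11.37 and 11.05 at 0 min of ischemia+reperfusion, 11.78, 11.72, 11.44 and 11.47 at 10 min, 11.65, 11.56, 11.66 and 11.71 at 30 min, 11.96, 11.87, 11.99 and 12.01 at 60 min, and 12.44, 12.35, 12.00 and 12.11 at 120 min. In ischemia alone it read 10.39, 11.52, 11.35 and 11.10 at 0 min, 11.86, 11.80, 11.58 and 11.58 at 10 min, 11.96, 11.92, 11.88 and 11.79 at 30 min, 11.89, 12.00, 11.82 and 11.94 at 60 min, and 11.96, 11.96, 12.09 and 12.15 at 120 min. With reperfusion the group means were ordered by time, with overlap between 0 and 10 min, and all arrays from 30 min on lay above the 0 min arrays. With ischemia alone every later array lay above the 0 min arrays, the lowest of which (10.39) is the turned array.

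In the ischemia+reperfusion arm 1387074_at rose by 0.61 ± 0.14 at 60 min (1.53-fold, adjusted p = 0.0367). That call was lost without normalization (0.58, adjusted p = 0.125), with arrays centred on their medians (adjusted p = 0.0561), and without the replicate block for preparation (adjusted p = 0.0515). Its changes of 0.26 and 0.30 (SE 0.14) at 10 and 30 min were not called (adjusted p = 0.543 and 0.363). In the ischemia arm the changes of 0.62, 0.80 and 0.82 (SE 0.14) at 10, 30 and 60 min missed the threshold (adjusted p = 0.0524, 0.0736 and 0.0681). Without the turned array they were 0.33, 0.52 and 0.54 (SE 0.13; adjusted p = 0.174, 0.163 and 0.121). At 120 min it was higher by 0.88 ± 0.14 in ischemia+reperfusion, and by 0.95 ± 0.14 in ischemia, or 0.67 ± 0.13 without that array.

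The other Rgs2 probe set, 1368144_at, differed from 1387074_at mainly in the ischemia 0 min group. It read 10.31, 9.94, 10.06 and 9.68 at 0 min of ischemia+reperfusion, 10.74, 10.61, 10.38 and 10.24 at 10 min, 10.49, 10.20, 10.37 and 10.50 at 30 min, 10.91, 10.50, 10.82 and 10.83 at 60 min, and 11.38, 11.23, 10.86 and 10.94 at 120 min. With ischemia alone its arrays read 11.56, 10.38, 10.00 and 9.97 at 0 min, 10.77, 10.48, 10.45 and 10.39 at 10 min, 10.79, 10.94, 10.67 and 10.67 at 30 min, 10.69, 10.88, 10.65 and 10.77 at 60 min, and 10.61, 10.54, 10.94 and 10.92 at 120 min. The turned array (11.56) was above every other ischemia array, so the changes at 10, 30 and 60 min were 0.04, 0.29 and 0.27 (SE 0.24) with it and 0.34, 0.59 and 0.57 (SE 0.17) without it, of which none was called. At 120 min the change was 0.27 ± 0.24 with it and 0.57 ± 0.17 without it. In ischemia+reperfusion, which that array does not touch, the changes were 0.50, 0.39 and 0.77 (SE 0.24) at 10, 30 and 60 min (adjusted p = 0.464, 0.495 and 0.0841) and 1.11 ± 0.24 at 120 min. The mean of the 2 Rgs2 probe sets rose by 0.69 ± 0.15 at 60 min of ischemia+reperfusion (adjusted p = 0.0273). It was not called at 10 or 30 min there (0.38 and 0.35, adjusted p = 0.348 and 0.301), nor at 10, 30 or 60 min of ischemia (0.33, 0.54 and 0.55, adjusted p = 0.216, 0.16 and 0.155).

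**Figure D3:**
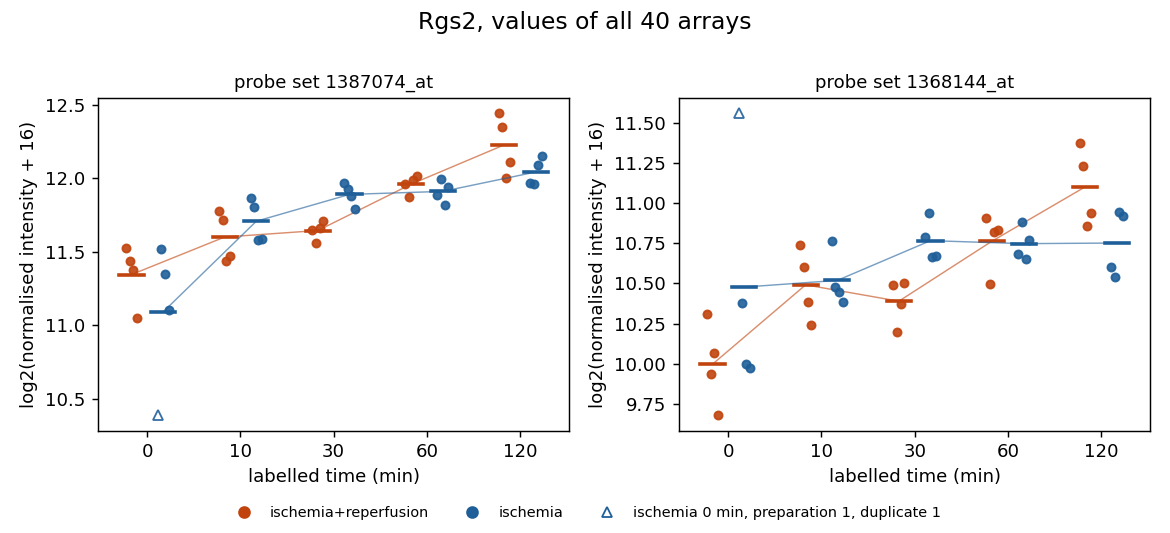
Rgs2 on each of the 40 arrays, as log2(normalised intensity + 16) (vertical axis) by labelled time (horizontal axis, min); left panel 1387074_at, right panel 1368144_at. Orange points are ischemia+reperfusion, blue points ischemia, bars are means of 4 arrays, and the open triangle, the ischemia 0 min array with turned pairs, is the lowest value on the left (10.39) and the highest on the right (11.56).

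Promoter windows are shown for Rgs4 and Rgs2, the members with 2 probe sets that were higher at later times, and for Gnaq, which was lower (described further on); these 3 were chosen after their values were seen. Each holds 250 bases before to 50 after the gene start in the RefSeq annotation of build GRCr8, in which 7 of the 9 member genes had a window. The Rgs4 window lies at chr13:84475835-84476134 on the minus strand, the Rgs2 window at chr13:58352617-58352916 on the minus strand, and the Gnaq window at chr1:222852203-222852502 on the plus strand. In the same annotation Rgs4 and Rgs5 are neighbouring genes. Capitals mark the core bound by hypoxia-inducible factors in its forms ACGTG and GCGTG and the core TGACG, bound by CREB-type factors, on either strand. A TGACG match can overlap an ACGTG match, since they share letters.
Rgs4: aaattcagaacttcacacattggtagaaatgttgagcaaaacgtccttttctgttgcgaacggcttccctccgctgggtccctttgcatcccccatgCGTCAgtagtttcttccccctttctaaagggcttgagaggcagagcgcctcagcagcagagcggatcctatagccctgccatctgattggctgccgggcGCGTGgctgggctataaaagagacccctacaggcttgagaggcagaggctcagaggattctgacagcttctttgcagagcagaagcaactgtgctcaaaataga
Rgs2: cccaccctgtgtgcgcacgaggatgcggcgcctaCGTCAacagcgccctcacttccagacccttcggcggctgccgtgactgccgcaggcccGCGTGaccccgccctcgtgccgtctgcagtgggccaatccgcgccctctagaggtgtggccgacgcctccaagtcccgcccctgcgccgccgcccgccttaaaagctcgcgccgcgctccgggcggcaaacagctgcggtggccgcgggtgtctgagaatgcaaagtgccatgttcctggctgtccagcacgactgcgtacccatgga
Gnaq: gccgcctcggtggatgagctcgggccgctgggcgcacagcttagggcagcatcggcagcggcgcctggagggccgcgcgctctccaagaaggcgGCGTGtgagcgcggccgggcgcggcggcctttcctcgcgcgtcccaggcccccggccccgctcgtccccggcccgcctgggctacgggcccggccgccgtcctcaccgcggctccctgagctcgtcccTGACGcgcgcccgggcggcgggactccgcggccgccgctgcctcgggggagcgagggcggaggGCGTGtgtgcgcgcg
The window of Rgs4 held 1 match to GCGTG with 1 match to TGACG, as did that of Rgs2. The window of Gnaq held 2 matches to GCGTG with 1 match to TGACG, while the form ACGTG was absent from these 3 windows. The Rgs5 window held none of these letters. The windows of Gna11 and Rgs14 each held 1 match to ACGTG. Of the 3 Gnas windows, that starting at 183489398 held 1 match to TGACG, that at 183502993 held none, and that at 183537089 held 1 match to ACGTG. Matches were also found in Gna11 and Gnas, which had narrow ranges in their tested probe sets. Whether any match bears on a member's values was not tested. Over 33465 windows of the same length, the letters GCGTG were found in 29.7%, the letters ACGTG in 19.3%, and the letters TGACG in 21.2%, so a match is common. The windows also differed in base composition, with 52.7% G and C in Rgs4, 69.7% in Rgs2 and 80.7% in Gnaq, beside a median of 51.7% over all windows.

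Rgs14, which binds Gi alpha subunits through both an RGS domain and a second, GoLoco motif, was the member that differed between the arms. Its probe set, 1369045_at, read 8.02, 7.98, 8.20 and 8.77 at 0 min of ischemia+reperfusion, 8.32, 7.57, 8.14 and 7.99 at 10 min, 8.39, 7.10, 8.27 and 7.77 at 30 min, 8.39, 8.02, 8.84 and 8.76 at 60 min, and 8.60, 8.10, 8.86 and 8.53 at 120 min. In ischemia alone it read 6.44, 7.57, 6.11 and 6.81 at 0 min, 8.06, 8.28, 7.80 and 8.39 at 10 min, 7.60, 5.17, 7.73 and 5.62 at 30 min, 7.34, 7.76, 6.71 and 6.97 at 60 min, and 7.28, 8.21, 8.07 and 7.74 at 120 min. At 0 and at 60 min all ischemia+reperfusion arrays lay above all ischemia arrays, and at 10, 30 and 120 min the arms overlapped. The ischemia 30 min group split by duplicate number, with duplicate 1 of each preparation at 7.60 and 7.73 and duplicate 2 at 5.17 and 5.62.

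Against ischemia at the same label, Rgs14 was higher in ischemia+reperfusion by 1.51 ± 0.27 at 0 min (2.85-fold, adjusted p = 0.0497) and by 1.31 ± 0.27 at 60 min (2.48-fold, adjusted p = 0.0257). These were the only member calls between the arms; 0.333% and 5.38% of all tested probe sets were called at those times. At 30 min the difference was 1.35 ± 0.27 (adjusted p = 0.0553), and at 10 and 120 min it was -0.13 and 0.70 (SE 0.27; adjusted p = 0.924 and 0.657). Within ischemia, Rgs14 rose by 1.40 ± 0.27 at 10 min against 0 min (2.64-fold, adjusted p = 0.0339). Without the turned 0 min array the difference between arms at 0 min was 1.23 ± 0.34 (adjusted p = 0.11) and the change at 10 min of ischemia 1.12 ± 0.34 (adjusted p = 0.112). Neither stayed past the threshold, while the call at 60 min between the arms does not use that array. The call at 60 min held when any 1 array of those groups was left out (adjusted p from 0.013 to 0.0471). It and the call at 0 min were lost when the low ischemia 30 min array of preparation 2 was left out, which is in neither comparison but enters the shared fit, and the difference at 30 min was then 0.83 (adjusted p = 0.325).

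Rgs5, known as a marker of pericytes, the mural cells of small vessels, was not called before 120 min. Its probe set, 1369957_at, read 9.12, 9.22, 8.88 and 9.50 at 0 min of ischemia+reperfusion, 9.75, 9.29, 9.05 and 9.35 at 10 min, 8.94, 8.91, 9.75 and 9.49 at 30 min, 9.51, 9.07, 9.51 and 9.49 at 60 min, and 9.87, 9.57, 9.66 and 9.60 at 120 min. Ischemia arrays read 9.23, 9.03, 8.78 and 8.46 at 0 min, 9.34, 9.35, 9.42 and 9.68 at 10 min, 9.34, 9.35, 9.06 and 9.27 at 30 min, 9.34, 9.22, 9.04 and 9.41 at 60 min, and 9.78, 9.56, 9.48 and 9.56 at 120 min. In each arm all 120 min arrays lay above all 0 min arrays, by 0.50 ± 0.21 in ischemia+reperfusion and 0.72 ± 0.21 in ischemia, and of these 2 the ischemia change was among the calls at 120 min. At 10, 30 and 60 min the changes were 0.18, 0.09 and 0.21 with reperfusion (SE 0.21; adjusted p = 0.834, 0.916 and 0.607) and 0.57, 0.38 and 0.38 without it (adjusted p = 0.16, 0.416 and 0.42).

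The mean level of the 12 smooth muscle and pericyte markers was 10.52 at 120 min of ischemia (10.48 to 10.56), against 10.39 at 0 min (10.34 to 10.44). In ischemia+reperfusion it was 10.33 at 120 min (10.20 to 10.57), against 10.24 at 0 min (10.13 to 10.36), so the arrays overlapped. The median change of the 12 markers at 120 min was 0.02 in ischemia+reperfusion and 0.11 in ischemia. At 120 min 1 of the 12 markers rose in ischemia+reperfusion, Cspg4 by 0.87 ± 0.19, while in ischemia the changes of the 12 ran from -0.44 to 0.65 and did not pass. At 60 min of ischemia+reperfusion, where Rgs4 and Rgs2 were called, Cspg4 also rose (0.77 ± 0.19, adjusted p = 0.0451), as 1 of 12. In the same comparison 1 of 10 fibroblast markers, Tcf21, and 1 of 8 macrophage markers, Mrc1, fell (-0.82 ± 0.16 and -0.75 ± 0.16, adjusted p = 0.02 and 0.0274), and they were also called lower at 120 min (-0.61 and -0.69). At 120 min of ischemia 2 of 10 fibroblast markers rose, Ddr2 by 0.70 ± 0.20 and Pdgfra by 0.45 ± 0.13, and 4 of 7 endothelial markers rose, Pecam1 by 1.04, Esam by 0.57, Tie1 by 0.52 and Tek by 0.33. Of 13 cardiomyocyte markers 1, Myh7, rose, by 0.32 ± 0.08 at 120 min of ischemia+reperfusion. Of all tested probe sets 4.69% were called at 60 min and 7.17% at 120 min of ischemia+reperfusion, and 12.9% at 120 min of ischemia. The lowest of the tested pericyte markers still had a mean of 7.22, and the part of other cell types in the values of Rgs5 and the other members was not tested.

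**Figure D4:**
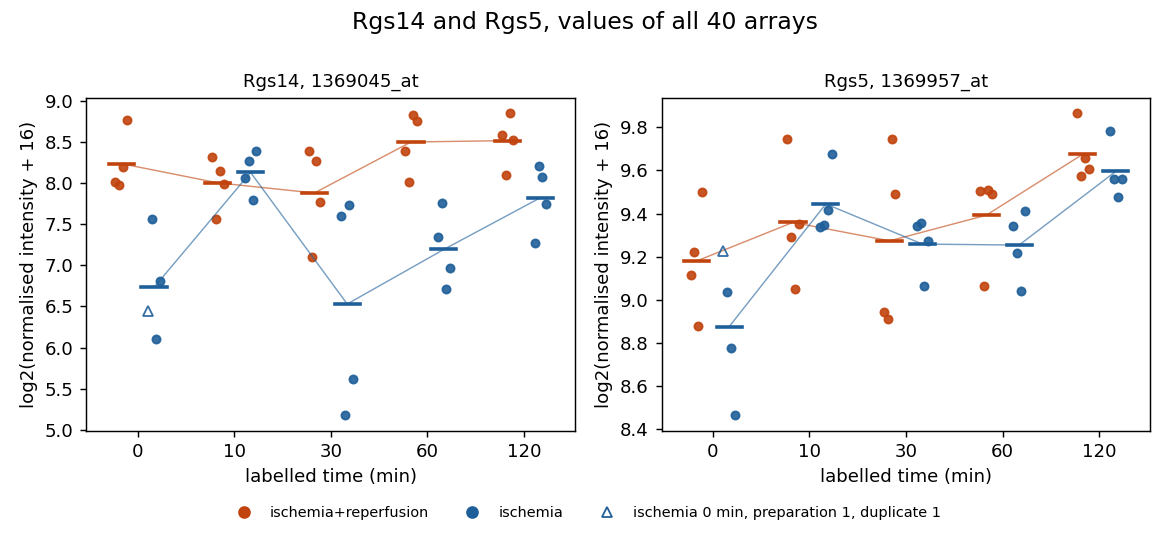
Rgs14 (left) and Rgs5 (right) on each of the 40 arrays, as log2(normalised intensity + 16) (vertical axis) by labelled time (horizontal axis, min); orange points are ischemia+reperfusion, blue points ischemia, bars are means of 4 arrays, and the open triangle is the ischemia 0 min array with turned pairs. Rgs14 lies higher in all ischemia+reperfusion arrays than in all ischemia arrays at 0 and 60 min, and Rgs5 lies higher at 120 than at 0 min in both arms.

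Gnaq, the alpha subunit of Gq, was the one alpha subunit with a wide range, and it was dim. Its only probe set, 1370091_at, averaged 6.53 (an intensity of 90.2 as deposited, percentile 40.7), just above the filter at 6.48; the next member below the filter was a Gnas probe set at 6.33. It read 6.62, 7.05, 7.54 and 7.20 at 0 min of ischemia+reperfusion, 6.79, 6.85, 6.82 and 7.54 at 10 min, 6.47, 6.50, 6.42 and 6.94 at 30 min, 5.07, 6.53, 4.92 and 7.05 at 60 min, and 4.60, 4.95, 6.69 and 5.91 at 120 min. In ischemia alone it read 7.69, 7.64, 6.57 and 7.63 at 0 min, 6.0, 5.99, 7.06 and 6.67 at 10 min, 7.02, 6.98, 6.62 and 7.31 at 30 min, 6.85, 7.15, 7.27 and 6.57 at 60 min, and 5.26, 5.29, 4.41 and 6.64 at 120 min. The spread was wide where values were low, and at 60 min of ischemia+reperfusion duplicate 1 was low (5.07 and 4.92) and duplicate 2 was not (6.53 and 7.05) in both preparations.

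At 120 min Gnaq was lower than at 0 min by 1.56 log2 units with reperfusion (-1.56 ± 0.36) and by 1.98 without it (-1.98 ± 0.36), the values on which it had been named. The highest array of each 120 min group (6.69 and 6.64) was the one out of place, and without that pair the changes were -1.76 ± 0.39 and -2.54 ± 0.39. None of the earlier comparisons, which the naming did not use, passed the test. In ischemia+reperfusion the changes at 10, 30 and 60 min were -0.10, -0.52 and -1.21 (SE 0.36; adjusted p = 0.963, 0.572 and 0.0786), and in ischemia -0.95, -0.40 and -0.42 (adjusted p = 0.163, 0.641 and 0.614). Without the turned array the ischemia changes were -0.94, -0.39, -0.41 and -1.97 (SE 0.36) at 10, 30, 60 and 120 min. Between the arms the difference furthest from 0 was -1.07 ± 0.36 at 60 min (adjusted p = 0.106).

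Gna11, which encodes the close relative of Gq, did not share that range. Its probe set, 1387822_at, read 8.48, 8.70, 8.55 and 8.46 at 0 min of ischemia+reperfusion, 8.45, 8.41, 8.43 and 8.37 at 10 min, 8.44, 8.54, 8.49 and 8.44 at 30 min, 8.54, 8.39, 8.59 and 8.40 at 60 min, and 8.32, 8.39, 8.32 and 8.29 at 120 min. Without reperfusion it read 8.56, 8.48, 8.14 and 8.55 at 0 min, 8.46, 8.51, 8.54 and 8.43 at 10 min, 8.34, 8.46, 8.46 and 8.50 at 30 min, 8.41, 8.42, 8.40 and 8.29 at 60 min, and 8.36, 8.40, 8.44 and 8.43 at 120 min. All 10 group means lay between 8.33 and 8.55. With reperfusion the 120 min arrays lay below all 0 min arrays, a change of -0.22 ± 0.07, whereas in ischemia the groups overlapped and the change was -0.03 ± 0.07. None of its changes at 10 to 60 min was called, the furthest from 0 being -0.13 ± 0.07 at 10 min of ischemia+reperfusion (adjusted p = 0.474).

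Gnas had 3 probe sets, of which the leading one, 1369897_s_at, had the narrowest range of group means among the tested member probe sets. It lay at percentile 99.8 with an average intensity of 10511 as deposited, and its 10 group means ran from 13.32 to 13.39. It read 13.36, 13.38, 13.40 and 13.41 at 0 min of ischemia+reperfusion, 13.27, 13.35, 13.40 and 13.45 at 10 min, 13.36, 13.39, 13.35 and 13.36 at 30 min, 13.36, 13.35, 13.31 and 13.40 at 60 min, and 13.32, 13.38, 13.31 and 13.41 at 120 min. Ischemia arrays read 13.34, 13.43, 13.36 and 13.36 at 0 min, 13.38, 13.43, 13.35 and 13.40 at 10 min, 13.36, 13.33, 13.34 and 13.37 at 30 min, 13.28, 13.33, 13.32 and 13.33 at 60 min, and 13.32, 13.42, 13.30 and 13.42 at 120 min. With reperfusion the groups overlapped at all times. In ischemia the 60 min arrays (13.28 to 13.33) lay just below all 0 and 10 min arrays (lowest 13.34 and 13.35). The other later ischemia groups overlapped with 0 min. No change against 0 min exceeded 0.06 in size (SE 0.05), and none was called.

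The other 2 Gnas probe sets were too dim to be tested. Probe set 1387906_a_at averaged 6.33, with group means from 6.0 to 6.58 and no order by time. Probe set 1390263_at averaged 5.51 and, in ischemia+reperfusion, had means of 5.16, 5.09, 5.39, 5.67 and 6.02 at 0, 10, 30, 60 and 120 min. Its arrays at 120 min of ischemia+reperfusion read 5.94, 5.95, 6.41 and 5.79, against 5.33, 4.70, 5.06 and 5.55 at 0 min, without overlap. In ischemia alone the means stayed between 5.31 and 5.74. In a fit of all probe sets without the filter the change at 120 min with reperfusion was 0.86 ± 0.16, and that at 60 min was 0.51 ± 0.16 (adjusted p = 0.137). RefSeq lists 3 gene starts with promoter windows for Gnas, a locus known for alternative first exons, and the files do not say which transcript each probe set reads.

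Gnai2, a widely expressed Gi alpha subunit, had group means from 10.95 to 11.38 in its probe set 1367844_at. It read 11.45, 11.16, 11.11 and 11.08 at 0 min of ischemia+reperfusion, 10.95, 10.95, 11.02 and 10.89 at 10 min, 11.40, 10.99, 11.23 and 11.26 at 30 min, 11.51, 11.02, 11.08 and 11.04 at 60 min, and 11.43, 11.37, 11.44 and 11.27 at 120 min. Ischemia arrays gave 11.40, 11.10, 11.38 and 11.12 at 0 min, 11.40, 11.10, 11.32 and 10.87 at 10 min, 11.44, 11.10, 11.45 and 11.23 at 30 min, 11.37, 11.24, 11.33 and 11.09 at 60 min, and 11.47, 11.31, 11.55 and 11.12 at 120 min. With reperfusion the 10 min arrays were the lowest group, with a change of -0.25 ± 0.08 (adjusted p = 0.234), and none of the changes of Gnai2 was called in any comparison.

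The 2 probe sets shared by Gnai1 and Gnai3 cannot be given to either gene alone by their symbols. The transcript listed for 1368029_at is a RefSeq transcript of Gnai3, which points to that gene for this probe set. The sequence listed for 1368030_at was not matched to a RefSeq gene. Whether these probe sets also read Gnai1 was not tested, so their values are not counted among the members. Outside the turned array, the first (1368029_at) read from 11.46 to 11.91 and the second (1368030_at) from 9.19 to 9.96. On the turned array they read 9.79 and 11.75. With reperfusion their changes at 10, 30 and 60 min lay between -0.07 and 0.18 (SE 0.21 and 0.29).

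**Figure D5:**
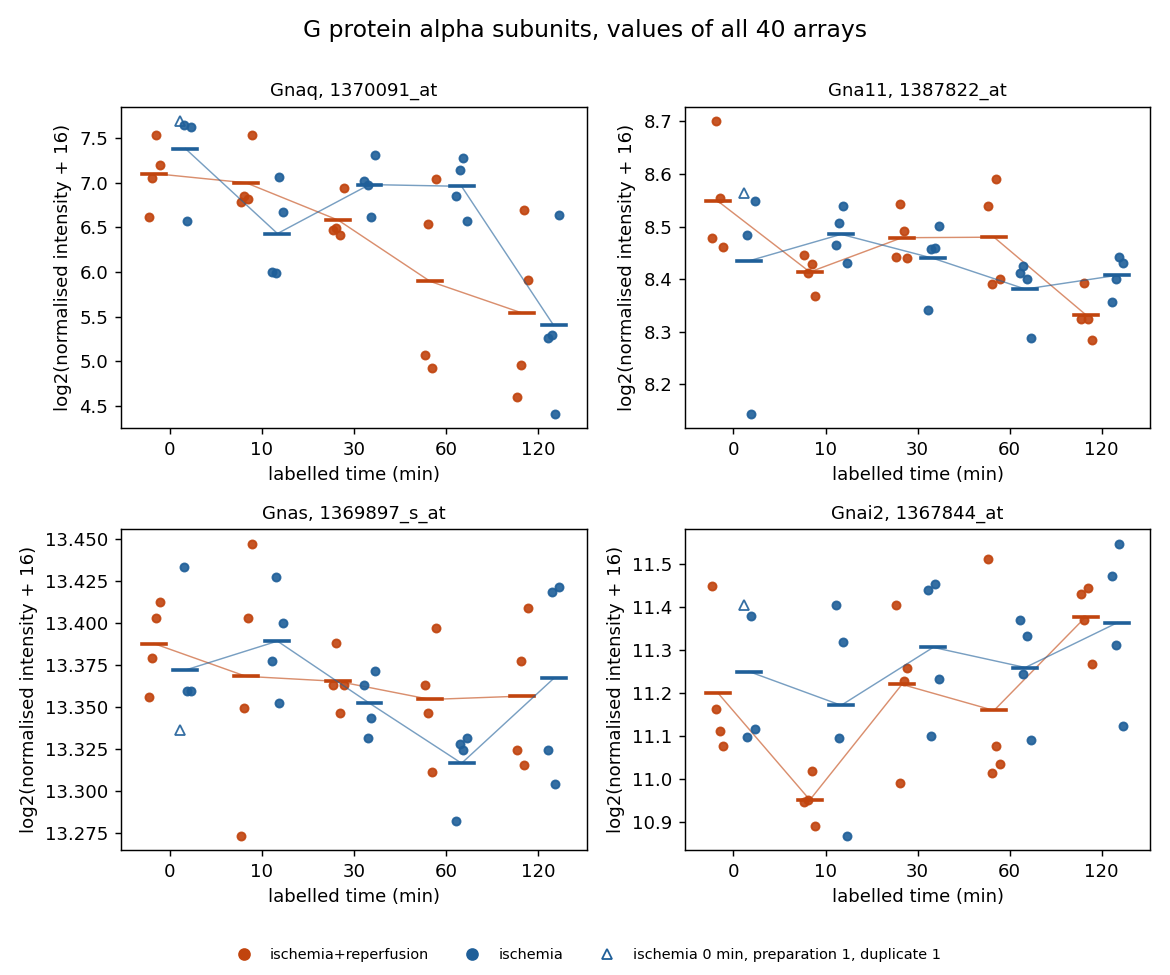
Gnaq, Gna11, Gnas and Gnai2 on each of the 40 arrays, as log2(normalised intensity + 16) (vertical axis, a separate range in each panel) by labelled time (horizontal axis, min); orange points are ischemia+reperfusion, blue points ischemia, bars are means of 4 arrays, and the open triangle is the ischemia 0 min array with turned pairs. Gnaq spans group means from 5.40 to 7.38, whereas those of Gnas span 0.07 log2 units.

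A direct test of the arms found few differences among the members. At 10, 30 and 120 min 0 of the 10 probe sets were called between ischemia+reperfusion and ischemia, with 1, 2 and 1 at an unadjusted p under 0.05 in limma. Of all tested probe sets 0% were called at 10 min (1860 at an unadjusted p under 0.05), 0.532% at 30 min and 0% at 120 min (1333 at an unadjusted p under 0.05). For Rgs4 1368505_at the differences at 0, 10, 30, 60 and 120 min were 0.67, 0.23, 0.58, 0.46 and -0.22 (SE 0.23; adjusted p = 0.176, 0.783, 0.25, 0.239 and 0.932), and that at 0 min was 0.27 ± 0.28 without the turned array. At 10 min the 1368505_at difference was 0.54 ± 0.16 without the ischemia+reperfusion array singled out for its low Rgs4 value. For 1368506_at it was 0.80 ± 0.23 without that array and 0.39 ± 0.28 with it. For Rgs2 1387074_at the differences ran from -0.25 to 0.25 (SE 0.14), and the highest, at 0 min, was -0.03 ± 0.13 without the turned array. Whether the course over time differed between the arms was tested with an F test over the 4 interaction terms, which called 0 members (Rgs14 was lowest, unadjusted p = 0.00711, adjusted p = 0.263) and 0.00537% of all tested probe sets.

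Among 11 tested RGS genes outside the members, of 21 listed, 3 passed in at least 1 of the 13 comparisons. Their calls were at 60 and 120 min of ischemia+reperfusion and at 120 min of ischemia. Of all tested probe sets 4.69%, 7.17% and 12.9% were called there, and nothing is read from the count. Rgs16, which acts on Gi and Gq, rose by 0.77 ± 0.12 at 60 min of ischemia+reperfusion (adjusted p = 0.0114) and was higher at 120 min by 0.98 ± 0.12 there and 0.85 ± 0.12 in ischemia. Rgs19 fell by 0.51 at 60 min of ischemia+reperfusion (-0.51 ± 0.13, adjusted p = 0.0449), with -0.49 ± 0.13 at 120 min. Rgs6 was lower at 120 min in both arms, by -0.96 ± 0.25 with reperfusion and -0.88 ± 0.25 without.

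Among the partners of alpha subunits, calls were counted at 120 min of ischemia in 3 of 14 beta and gamma subunit genes (3 higher) and 6 of 19 effector genes (4 higher, 2 lower), beside 12.9% of all tested probe sets, and nothing is read from these small counts. Of the 14 tested beta and gamma subunit genes, Gng11 rose at 10 min of ischemia by 0.57 ± 0.13 (adjusted p = 0.0471), and the other calls were at 120 min (Gng11 by 0.54 in ischemia+reperfusion and 0.80 in ischemia, Gnb3 by 0.62 and Gng8 by 0.47 in ischemia). Of 5 tested other alpha subunit genes, 1 passed, Gnal, with 0.56 ± 0.16 at 120 min of ischemia. Of 19 tested effector genes, Prkcd, protein kinase C delta, rose at 10 min of ischemia by 0.43 ± 0.07 (adjusted p = 0.0208). The calls of Gng11 and Prkcd at 10 min use the 0 min group with the turned array, and were not tested without it. Prkce, protein kinase C epsilon, rose at 60 min of ischemia+reperfusion by 0.42 ± 0.08 (adjusted p = 0.0172) and was higher by as much at 120 min. At 120 min of ischemia Plcb3 was higher by 0.82 ± 0.19 and Plcb4 lower by -0.42 ± 0.10, both phospholipase C beta genes. Arhgef25 and Arhgef12 were higher there by 0.65 ± 0.10 and 0.30 ± 0.08. Prkaca, the catalytic subunit of protein kinase A, was lower in ischemia+reperfusion than in ischemia at 60 min (-0.32 ± 0.07, adjusted p = 0.0318).

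Of 24 tested receptor, receptor kinase and arrestin genes, S1pr3, a sphingosine 1-phosphate receptor, was called most often. It rose by 0.63 ± 0.10 at 30 min (adjusted p = 0.0173) and 0.71 ± 0.10 at 60 min of ischemia+reperfusion (adjusted p = 0.00745), and at 60 min it was higher there than in ischemia by 0.40 ± 0.10 (adjusted p = 0.0404). At 120 min it was higher by 0.68 ± 0.10 in ischemia+reperfusion and 0.64 ± 0.10 in ischemia. Lpar1, a lysophosphatidic acid receptor, rose at 60 min of ischemia+reperfusion by 0.34 ± 0.07 (adjusted p = 0.0272; 0.42 at 120 min), and Agtr1a, the angiotensin II receptor, which couples to Gq, fell (-0.78 ± 0.18, adjusted p = 0.0356). Adora1, the Gi-coupled adenosine receptor, rose at 10 min of ischemia by 0.54 ± 0.12 (adjusted p = 0.047), which was not tested without the turned array. At 120 min of ischemia+reperfusion Adora1 was lower (-0.47 ± 0.12). Adra1d, an alpha-1 adrenergic receptor coupled to Gq, was lower at 120 min of ischemia (-0.90 ± 0.21). Of 12 tested other regulators of G protein cycling, Gprasp1 fell at 60 min of ischemia+reperfusion (-0.51 ± 0.09, adjusted p = 0.0161) and was lower there than in ischemia (-0.43 ± 0.09, adjusted p = 0.0296), and Pdcl, a phosducin-like protein that binds beta and gamma subunits, was lower at 120 min of ischemia (-0.41 ± 0.10).

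The genes most like Rgs4 1368505_at over the 20 averages of duplicates, by Pearson's r, were Sh3d19 (0.921), Slc2a3, a glucose transporter (0.916), Adm, the vasodilator peptide adrenomedullin (0.907), Lox, lysyl oxidase (0.906), and Pgf, placental growth factor (0.905). Those most like Gnaq were Iffo1 (0.897), C17h5orf24 (0.896), Stx12, a syntaxin of endosomes (0.896), Fbxo25 (0.887) and Gdpd1 (0.885). Rgs4 was taken here for its range of group means with all arrays, a rank over Rgs14 that rests on the turned array. The averages include the turned array, and likeness without it was not tested. These are descriptions across averages from the same arrays, which may share preparations, so no p is given.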

How the data were processed

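Total RNA of cultured myocytes was measured on 40 rat Affymetrix arrays. RNA was spin-column extracted and biotin-labelled after Eberwine amplification, per the labels' protocols. The deposited values are probe set intensities on a linear scale, and 15.8% of them are negative; which algorithm and scaling made them is not given in the sources used. Deposited array medians ran from 100.7 to 170.7, so intensities were quantile-normalized (limma 3.58.1, R 4.3.3), floored at 0 and transformed as log2(value + 16), which understates changes of dim probe sets. Probe sets whose mean exceeded the 40th percentile (6.48) were tested. Duplicates were averaged, giving n = 2 preparations a group, and 1 limma fit over 10 groups used preparation as a block (9 residual degrees of freedom). The labels number the preparations in each group and do not say that groups shared them, so the block is an assumption. Over 45 pairs of groups the preparation difference correlated with a median r of 0.18 (-0.18 to 0.53), above 0.1 in 34.

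Members, gene lists and tests were chosen with earlier results of these data known. All member probe sets are accounted for; in other lists up to 4 called genes with the largest change per comparison are named, each by its brightest probe set, and likeness is the highest Pearson correlation. Symbols came from a platform annotation (20826 probe sets with 1 symbol, 436 with several, 9780 with none). The fit was tested on simulated data in which all arrays were independent. The preparation block and likeness of duplicates were therefore not tested by it. The number of arrays limits the precision: the median standard error of a member's change was 0.22 log2 units.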

Additional observations from a re-analysis of the deposited data

Results flagged for a closer look

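In 8 of 100 groups of 4 arrays (10 tested member probe sets in 10 groups), 1 array lay far from the other 3 by Dixon's test; chance alone flags about 1 in 20 groups. Gnaq was flagged in 3 of them. In ischemia+reperfusion, preparation 2 duplicate 2 read 7.54 at 10 min (the others 6.79 to 6.85) and 6.94 at 30 min (the others 6.42 to 6.50), and in ischemia at 0 min preparation 2 duplicate 1 read 6.57 (the others 7.63 to 7.69).

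The other flags were single values. Rgs4 1368505_at read 10.15 at 120 min of ischemia+reperfusion in preparation 2 duplicate 2 (the others 10.81 to 10.94). Rgs5 read 9.07 at 60 min of ischemia+reperfusion in preparation 1 duplicate 2 (the others 9.49 to 9.51). Gnai2 read 11.51 at 60 min of ischemia+reperfusion in preparation 1 duplicate 1 (the others 11.02 to 11.08). In ischemia at 60 min, Gna11 read 8.29 in preparation 2 duplicate 2 (the others 8.40 to 8.42) and Gnas 13.28 in preparation 1 duplicate 1 (the others 13.32 to 13.33). The array with turned probe set pairs was flagged in 0 of these groups, its gaps in the tested member probe sets being below the limit of the test.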

How the results depend on the processing

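Of the 44 member changes with an unadjusted p under 0.05, under other settings 574 values kept their side of the threshold, 41 newly passed and 45 no longer passed; under settings added after seeing the data (the mean of both probe sets, a second block) the numbers were 53, 15 and 2, and none of those 44 turned its sign. Weaker changes did, such as Gnaq at 10 min of ischemia+reperfusion (-0.10, or 0.08 without preparation 2 duplicate 1). The 44 were picked by p in these data and include changes at 120 min. A change that was not called counts as keeping its side when it stays uncalled. Calls at 10 to 60 min were 5 in ischemia+reperfusion and 4 in ischemia, and over all 5 times 2 were between the arms. Without the replicate block for preparation they were 1, 2 and 1. Without the filter on dim probe sets they were 3, 1 and 1, and the larger number of probe sets adjusted for raises adjusted p there. With arrays as samples and duplicateCorrelation (0.078) they were 8, 9 and 1. With arrays as samples and the duplicate number as a second block, added after seeing the data, they were 9 and 10 within the arms. That fit took duplicates of a preparation as independent, which can make adjusted p too low. Without normalization, when the median shift of all tested probe sets ran from -0.23 to 0.21 over the comparisons, the ischemia arm had 2, and after centring each array on its own median 4 were called between the arms; the cause was not tested. Leaving out single arrays gave 1 to 7 calls in ischemia+reperfusion, 1 to 7 in ischemia and 0 to 3 between the arms, and 4 to 6 at 120 min of each arm. The lowest counts came without ischemia+reperfusion 10 min preparation 2 duplicate 2 (1 call), ischemia 0 min preparation 1 duplicate 1 or ischemia 60 min preparation 1 duplicate 1 (1 each), and ischemia 30 min preparation 2 duplicate 2 (0 between the arms); without ischemia 0 min preparation 2 duplicate 1 there were 7 in ischemia. Without the block the Rgs4 calls at 30 min of ischemia+reperfusion were lost (adjusted p = 0.0707 and 0.0802). The interaction test called 0 members under every alternative run. Gnaq, which is dim, had the widest standard error of the tested members (0.36).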

Other observations

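The duplicate number, which the labels give with no meaning beyond a count, went with the level of 2 bright members. Gnai2 was higher in duplicate 1 than in duplicate 2 of the same group and preparation in 18 of 20 pairs, by a median of 0.23 log2 units. The leading Gnas probe set was higher in duplicate 1 in 2 of 20 pairs, with a median difference of -0.05. In Gnaq duplicate 1 was higher in 7 of 20 pairs, with differences from -2.23 to 0.78, and in Rgs14 in 12 of 20, with differences from -1.13 to 2.43. The main values average the duplicates, so each group holds both numbers equally.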
